A study of Mus musculus with 6 samples.

Results

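Cathepsins are proteases of the lysosome, and cystatin C is the secreted protein that inhibits most of those with a cysteine in the active site. The genes examined here are Ctsb, Ctsc, Ctsh, Ctsk, Ctsl, Ctss and Ctsz, which encode cysteine cathepsins, Ctsd, which encodes an aspartic cathepsin, Ctsa, which encodes a serine carboxypeptidase, and Cst3, which encodes cystatin C. The members were all probe sets that the array annotation assigns to exactly 1 of these symbols. This gave 21 probe sets of 10 genes, out of 45037 probe sets tested and 18193 genes named by a probe set of 1 gene. Injured carotid arteries were compared between non-transgenic (NTG) mice and mice with smooth muscle-specific overexpression of IRF9 (SMC-IRF9-TG), which carry mouse IRF9 cDNA under a minimal SM22α promoter. The strain was C57BL/6 by the labels (C57BL/6J in the methods), the methods state males 10 to 12 weeks old, and all arteries were taken 14 days after wire injury, so the array experiment has no uninjured group. The study's phenotyping used transgenic line 4, and the labels do not name the line on the arrays. Each of the 3 samples per group was a pool of 3 to 5 vessels on 1 array.

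Cathepsins are made as inactive precursors, sorted to the lysosome and activated there at low pH by cleavage, and they degrade the proteins that the lysosome takes in. In arteries, cathepsins K, L and S are known as elastases and collagenases that smooth muscle cells and macrophages can secrete. Cathepsin S also cleaves the invariant chain of class II molecules in antigen-presenting cells, and cathepsin C activates the serine proteases of neutrophils, mast cells and cytotoxic lymphocytes.

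Ctsk and Ctss lie next to each other on chromosome 3, with 1 long non-coding RNA gene annotated between them, and they had the largest differences of the 10 genes. Promoter windows of 300 bases, from 250 bases before to 50 bases after a transcription start, were matched by symbol for 8 of the 10 genes in RefSeq (GRCm38.p6), all but Ctsb and Ctsh, and Ctsa had one at each of its 2 starts. The 250 bases before the start are printed for Ctss, which holds a match to the element that interferon regulatory factors bind, for its neighbour Ctsk, and for Ctsd, as an example of a window with E-boxes. Capitals mark the core of the interferon-stimulated response element, which is GAAA, any 2 bases and GAAA, in Ctss, the PU.1 core, GAGGAA or TTCCTC on the other strand, in Ctsk, and the E-box, CACGTG, in Ctsd.
Ctss, chr3:95526536-95526785, plus strand: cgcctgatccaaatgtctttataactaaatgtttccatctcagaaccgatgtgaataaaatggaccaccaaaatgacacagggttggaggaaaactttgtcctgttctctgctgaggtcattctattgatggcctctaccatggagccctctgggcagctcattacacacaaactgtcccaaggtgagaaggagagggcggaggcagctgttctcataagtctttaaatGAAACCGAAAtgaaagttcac
Ctsk, chr3:95498960-95499209, plus strand: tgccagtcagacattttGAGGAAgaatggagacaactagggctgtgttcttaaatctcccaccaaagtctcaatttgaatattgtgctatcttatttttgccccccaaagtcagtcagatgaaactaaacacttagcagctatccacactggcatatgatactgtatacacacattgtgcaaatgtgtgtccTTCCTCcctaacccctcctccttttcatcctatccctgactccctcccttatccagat
Ctsd, chr7:142387828-142388077, minus strand: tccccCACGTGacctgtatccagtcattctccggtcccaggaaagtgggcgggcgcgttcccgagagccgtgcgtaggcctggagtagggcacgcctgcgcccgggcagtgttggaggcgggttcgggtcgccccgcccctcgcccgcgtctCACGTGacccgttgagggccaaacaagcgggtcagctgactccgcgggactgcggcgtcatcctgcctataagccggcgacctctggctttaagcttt
The windows were searched on both strands, and none of the 13 matches overlapped another. Ctss held the only match to this element, from 21 to 12 bases before the start, a motif found in 3.44% of all 32851 windows. The E-box, which the lysosomal regulators TFEB, TFE3 and MITF bind, was matched in Ctsl, in Ctsd with 2 matches, and at the second start of Ctsa with 2 matches, against 7.15% of all windows. The PU.1 core, the site of a factor of myeloid cells, was matched in Ctss, Ctsk, Ctsc and Cst3, against 28.3% of all windows. The AP-1 site, TGANTCA, was not matched in any of these windows and was present in 7.81% of all. A match describes these letters and does not show binding.

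**Figure D1:**
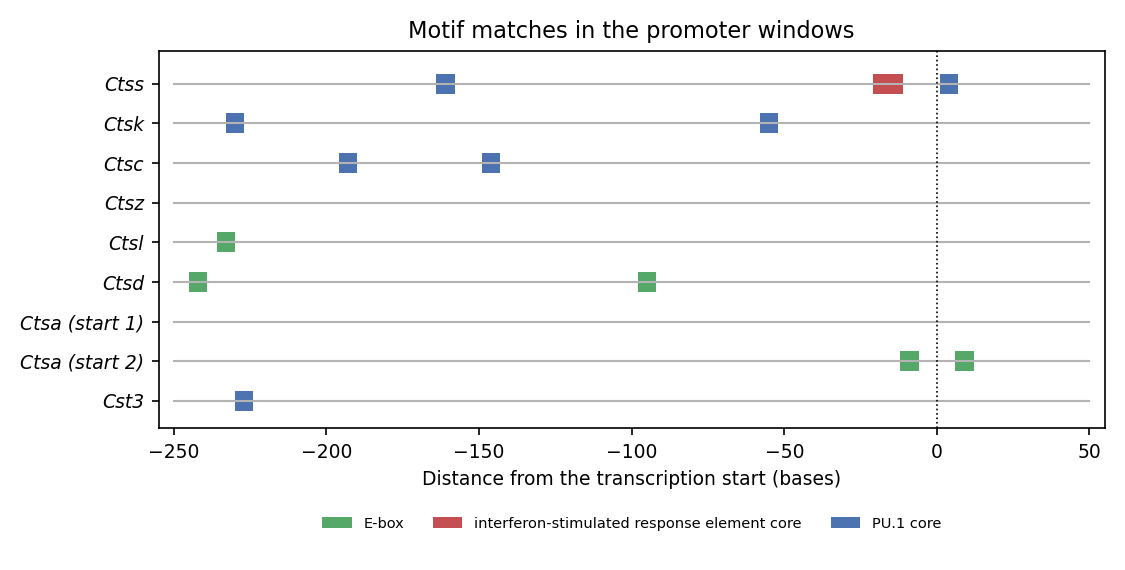
Positions of motif matches (coloured blocks) in the 9 promoter windows of 8 genes, with the distance from the transcription start in bases on the x axis and a row for each window. The interferon-stimulated response element core is matched in Ctss, 21 to 12 bases before the start, and in no other row.

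The arrays differed in quality. Across probe sets, Pearson's r was 0.927 to 0.955 between NTG arrays and 0.980 to 0.985 between SMC-IRF9-TG arrays. In NTG pool 2 the Actb control probe set of the 3′ end read 7.09 log2 units above that of the 5′ end, against 1.56 to 3.04 on the other arrays, and NTG pool 2 was the lowest array in 8 of the 21 member probe sets and in 22.6% of all probe sets. Xist, the RNA that silences an X chromosome in females, was high on 2 NTG arrays (9.94 in pool 1 and 9.50 in pool 2, against 2.94 to 4.08 elsewhere). This goes against the males that the methods state, and the sex of these pools is not settled here. Poly-A controls were lowest in transgenic pools 1 and 2. Irf9 differed by 0.30 (adjusted p = 0.436 from limma), and where its probe set lies relative to the transgene is not known here. The smooth muscle markers Acta2 (13.28 to 13.63) and Myh11 (10.82 to 11.31), both on the log2 scale, were present on all 6 arrays.

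Several cathepsin transcripts were more abundant in SMC-IRF9-TG arteries. Ctss, Ctsk and Ctsc differed most, by 23.9-fold, 11.7-fold and 7.91-fold, and Ctsz and Ctsl were 3.16-fold and 2.29-fold higher by their brightest probe sets. Detection was not checked, and Ctsk read close to the array medians (3.42 to 3.66) in NTG pools 1 and 2, so its fold is only an estimate on the RMA scale. The remaining 5 genes, Ctsh, Ctsb, Ctsd, Ctsa and Cst3, did not pass the test. In these bulk samples, more cells of a type and more RNA per cell cannot be told apart. All differences are log2 values, positive where SMC-IRF9-TG was higher, with limma p-values adjusted over all probe sets and a threshold of 0.05. Of the 21 member probe sets, 7 were higher, against 2.37% of all probe sets tested. None was lower by limma, against 0.373% of all, and none was lower at an unadjusted p under 0.05 by limma or by the t-test that the methods name. That t-test gave 11 higher at an unadjusted p under 0.05, against 18.6% of all probe sets in either direction, and none after adjustment. Limma gave 15 higher at an unadjusted p under 0.05. The share of all probe sets was not taken for limma at that level, nor by direction for the t-test. Unadjusted counts here and for the lists below thus stand without it. Taken by the brightest probe set of each gene, 5 of 10 genes were higher, against 3.11% of all genes, and none was lower, against 0.511%. The median difference was 1.48 over the 10 genes and -0.05 over all genes. The lowest transgenic pool exceeded the highest NTG pool in 15 of the 21 probe sets, against 12.1% of all probe sets. The reverse order was seen in none, against 19.2% of all.

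**Figure D2:**
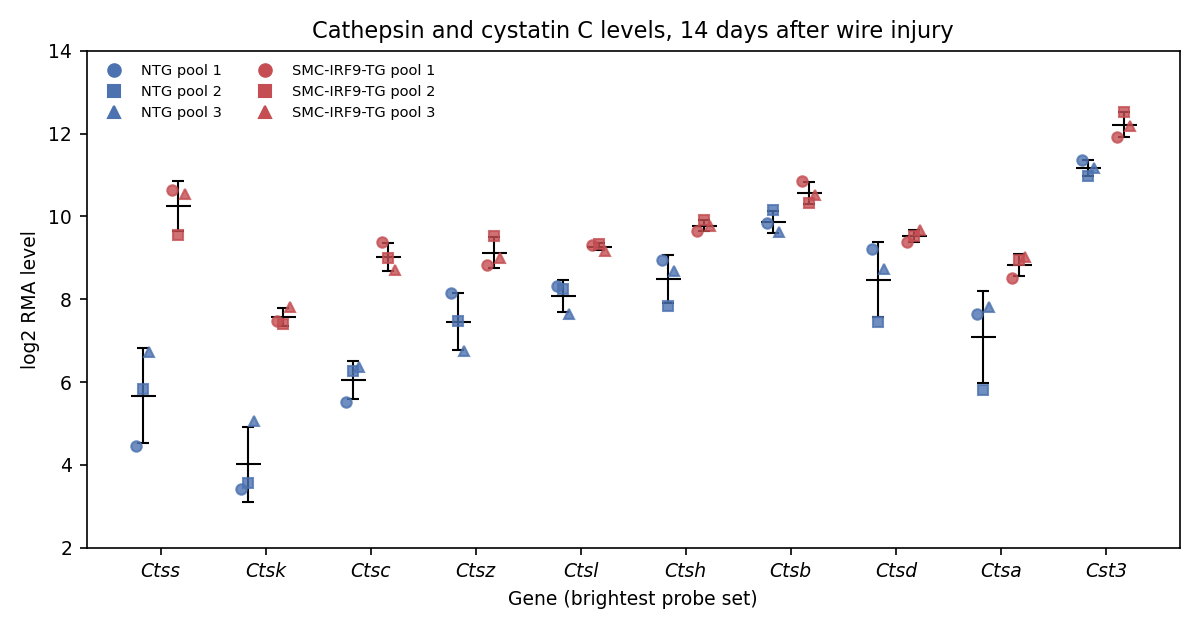
Log2 RMA level (y axis) of the brightest probe set of each of the 10 genes (x axis) in the 3 NTG pools (blue) and the 3 transgenic pools (red). Each point is a pool, and bars give the mean ± SD. All red points lie above all blue points of the same gene, by the widest margin in Ctss and by the narrowest in Ctsb and Ctsd.

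Ctss, which encodes cathepsin S, was measured by probe set 1448591_at alone. Its log2 levels were 4.46, 5.84 and 6.72 for NTG (pools 1, 2 and 3, the order used throughout) and 10.65, 9.55 and 10.55 for SMC-IRF9-TG. The groups did not overlap, and the NTG pools were spread over more than 2 units of the scale. The difference was 4.58 (standard error 0.54, adjusted p = 0.00541 from limma), and only 8 of the 18193 genes had a larger one. Its call held in all 6 fits that left out 1 pool (adjusted p of 0.00782 to 0.0249). It did not pass with a block for the arrays of high Xist (difference 3.52, adjusted p = 0.0852) or with a block for those of low poly-A controls (4.87, adjusted p = 0.102), each of which leaves 1 pool of a group to carry the comparison.

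Ctsk, which encodes the collagenase of osteoclasts and fibroblasts, read 3.43, 3.56 and 5.07 across the NTG pools and 7.48, 7.41 and 7.82 in the transgenic pools (log2 level, probe set 1450652_at, the only one of the gene). NTG pool 3 was the highest of its group for Ctsk, as it was for Ctss. The difference was 3.55 (standard error 0.41, adjusted p = 0.00482 from limma), with a larger one in 42 of the 18193 genes. The call held without any 1 pool (adjusted p of 0.00116 to 0.0298) and did not pass with the poly-A block (3.8, adjusted p = 0.0942).

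Ctsc, which encodes the dipeptidyl peptidase that activates granule proteases, was measured by 3 probe sets. By the brightest, 1416382_at, it read 5.52, 6.26 and 6.36 across the NTG pools and 9.38, 8.99 and 8.71 in the transgenic pools (log2 level), which is a rise of 2.98 (standard error 0.28, limma adjusted p = 0.00211). This call also held without any 1 pool (adjusted p of 0.00684 to 0.0173). It missed the threshold with the Xist block (2.67, adjusted p = 0.0522) and the poly-A block (2.67, adjusted p = 0.0841). The dimmer 1437939_s_at read 2.70 to 2.98 in NTG and 3.73 to 4.15 in SMC-IRF9-TG, a difference of 1.15 (adjusted p = 0.0258), and passed only without NTG pool 2 or NTG pool 3 when 1 pool was dropped. The dimmest, 1446834_at, had overlapping groups and a difference of 0.35 (adjusted p = 0.394), and its NTG mean of 2.44 lay under the lower quartile of those arrays.

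Ctsz and Ctsl passed by smaller margins. Ctsz encodes a carboxypeptidase of monocytes and macrophages. Its brightest probe set, 1417868_a_at, read 8.14, 7.48 and 6.76 across the NTG pools and 8.82, 9.54 and 9.0 in the transgenic pools (log2 level), or 1.66 higher (standard error 0.36, limma adjusted p = 0.0496). Here NTG pool 3 was the lowest array, unlike in Ctss and Ctsk. The x_at probe set of Ctsz, 1417870_x_at, was also higher (difference 1.72, adjusted p = 0.0329), and the s_at probe set, 1417869_s_at, differed by 0.86 (adjusted p = 0.147). In the fits that left out 1 pool, both calls were kept without NTG pool 1 and lost without any other pool (adjusted p of 0.0446 to 0.197 and 0.0211 to 0.152), while 1417869_s_at passed without NTG pool 2 (adjusted p = 0.0384). Ctsl, which encodes a lysosomal endopeptidase with elastase activity, read 8.33, 8.26 and 7.64 across the NTG pools and 9.32, 9.34 and 9.17 in the transgenic pools by probe set 1451310_a_at. The transgenic pools lay close together, and the difference was 1.20 (standard error 0.23, adjusted p = 0.0357). It passed without NTG pool 2 or NTG pool 3 and not without NTG pool 1 or any transgenic pool (adjusted p of 0.0387 to 0.159 over the 6 fits). A dim second probe set of Ctsl, 1457724_at, read between 2.62 and 3.08 on all arrays (difference 0.14, adjusted p = 0.662).

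The aminopeptidase gene Ctsh and the endopeptidase gene Ctsb did not pass. Ctsh read 8.95, 7.83 and 8.67 across the NTG pools and 9.65, 9.91 and 9.76 in the transgenic pools by 1418365_at (log2 level), a difference of 1.29 (95% interval 0.62 to 1.96, adjusted p = 0.0594 from limma). Without NTG pool 2, its lowest array, the difference was 0.96 and passed (adjusted p = 0.0464). Its other probe set, 1443814_x_at, differed by 0.50 (adjusted p = 0.192), also with groups that did not overlap. This probe set was the brighter of the 2 in NTG (mean 8.76 against 8.48) and the dimmer in SMC-IRF9-TG (9.26 against 9.77). The transgenic arrays thus decided which one stands for Ctsh. The 5 probe sets of Ctsb disagreed with each other in size and sign. The brightest, 1417490_at, read 9.85, 10.15 and 9.62 across the NTG pools and 10.84, 10.33 and 10.52 in the transgenic pools, a difference of 0.69 (95% interval 0.17 to 1.21, adjusted p = 0.141). The other 4 differed by -0.47 (1417491_at), 0.22 (1417492_at), 2.32 (1448732_at) and 0.04 (1444987_at). In 1448732_at, NTG pool 2 read 3.47, far below the other NTG pools (6.22 and 5.63), while SMC-IRF9-TG read 7.16, 7.61 and 7.49. Its difference of 2.32 did not pass (adjusted p = 0.086), and without NTG pool 2 it was 1.5 and passed (adjusted p = 0.0291).

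The proteases of other catalytic classes had wide NTG groups. Ctsd, the main aspartic protease of lysosomes, read 9.21, 7.46 and 8.74 across the NTG pools and 9.39, 9.52 and 9.68 in the transgenic pools (log2 level, 1448118_a_at). The groups were separated by 0.18, and the difference of 1.06 (95% interval 0.15 to 1.98) did not pass (adjusted p = 0.177 from limma). It was 0.56 without NTG pool 2 (adjusted p = 0.164). Ctsa, whose product protects the lysosomal enzymes neuraminidase and β-galactosidase, read 7.66, 5.82 and 7.82 across the NTG pools and 8.51, 8.94 and 9.02 in the transgenic pools by 1448128_at, a difference of 1.73 (95% interval 0.62 to 2.83, adjusted p = 0.101). Without NTG pool 2 it was 1.09 and passed (adjusted p = 0.047). The dim second probe set of Ctsa, 1458466_at, had overlapping groups (difference -0.14, adjusted p = 0.734). NTG pool 2, which had lost 5′ signal, was the lowest array for Ctsd, Cst3, both probe sets of Ctsa and 1418365_at of Ctsh. It was also the lowest for 1448732_at and 1444987_at of Ctsb and 1446834_at of Ctsc. It was the highest NTG pool for 1417490_at, 1417491_at and 1417492_at of Ctsb, 1437939_s_at of Ctsc and 1417869_s_at of Ctsz. The part of the lost 5′ signal in these differences was not tested.

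**Figure D3:**
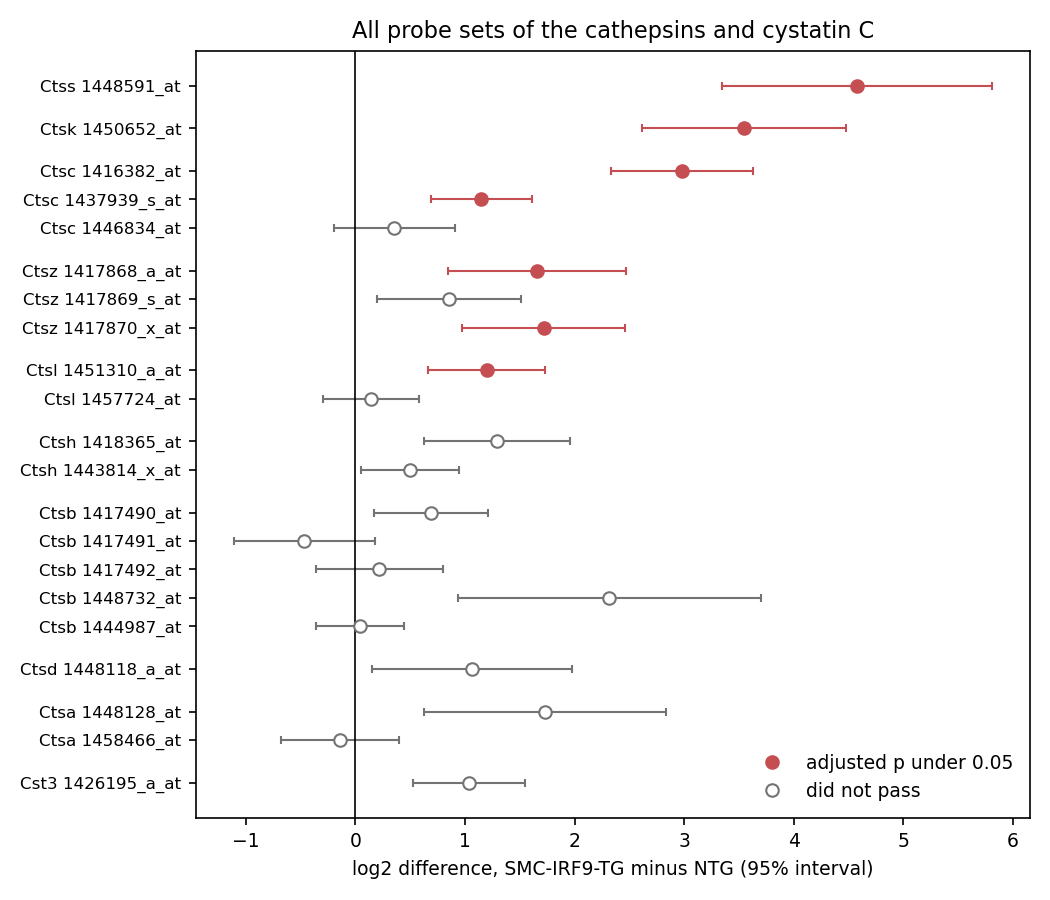
Log2 difference between SMC-IRF9-TG and NTG (x axis, points, with 95% intervals from limma as bars) for all 21 member probe sets, grouped by gene on the y axis. The 7 filled red points passed the adjusted threshold and the 14 open points did not, and the 5 probe sets of Ctsb run from -0.47 to 2.32.

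Cst3, which encodes the inhibitor cystatin C, read 11.37, 10.98 and 11.17 across the NTG pools and 11.93, 12.53 and 12.19 in the transgenic pools (log2 level, 1426195_a_at, its only probe set). Both groups were tight and did not overlap. The difference of 1.04 (95% interval 0.53 to 1.55, 2.05-fold) narrowly missed the threshold (adjusted p = 0.0506 from limma). It passed when the arrays were centred on their medians (adjusted p = 0.0382), when dim probe sets were left out (0.0409) and with a trended and robust prior (0.0259), and in none of the 6 fits that left out 1 pool (0.0686 to 0.199).

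Protease and inhibitor transcripts were then compared within each array, as the log2 level of a protease minus that of Cst3. This shows whether the pair changed by unequal amounts and not which transcript was more abundant. The difference of Ctss was 3.54 larger than that of Cst3, moving from -6.91, -5.15 and -4.45 in the NTG pools to -1.28, -2.98 and -1.64 in the transgenic pools. The differences of Ctsk, Ctsc and Ctsz were 2.51, 1.94 and 0.62 larger than that of Cst3. In these 4 of the 9 proteases the transgenic pools all exceeded the NTG pools, against 0.864% of all probe sets set against Cst3 in the same way. By exact permutation, the 2-sided p was 0.1 for each of the 4, the smallest that 3 pools against 3 allow. Adjusted over the 9 proteases compared, this permutation p was 0.225 for each of the 4, so none passed. When each gene was averaged over its probe sets, 2 of the 9 were separated. These were Ctss and Ctsk, which have 1 probe set each, so the average could not change them. Ctsc and Ctsz fell to 0.46 and 0.37, and their groups overlapped. By brightest probe sets, the groups of the other 5 overlapped. Their values relative to Cst3 were 0.69 for Ctsa, 0.25 for Ctsh, 0.16 for Ctsl, 0.02 for Ctsd and -0.35 for Ctsb (exact permutation p of 0.3 to 1). With genes averaged over their probe sets, the values of Ctsa, Ctsh and Ctsl were below 0. Without NTG pool 2, that of Ctsd was -0.38 by its only probe set.

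**Figure D4:**
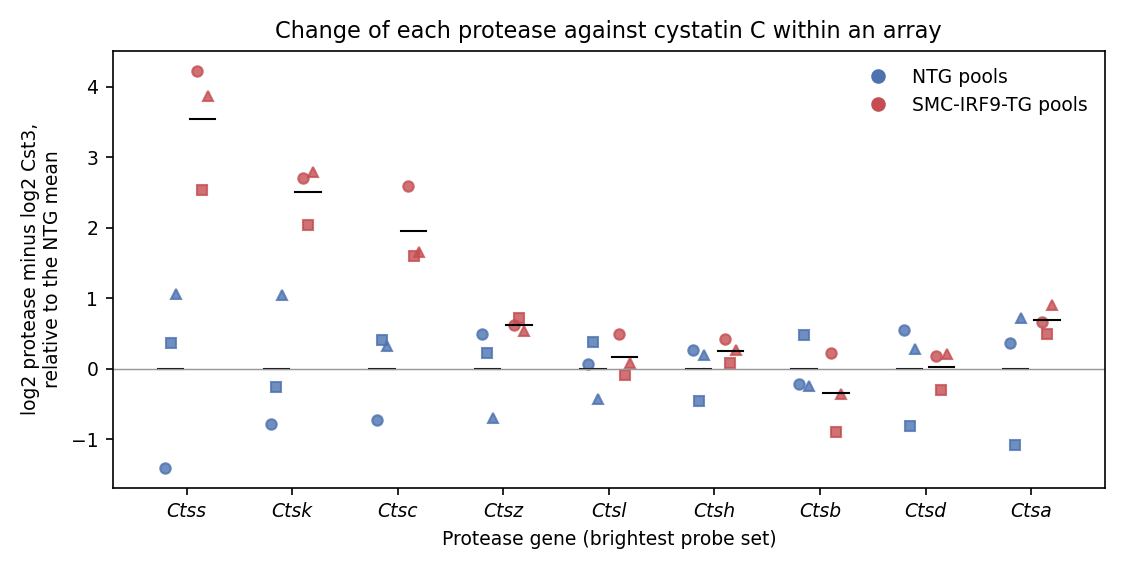
Log2 level of each protease minus that of Cst3 on the same array, shifted so that the NTG mean is 0 (y axis), for 9 proteases (x axis). Circles, squares and triangles are pools 1, 2 and 3 of each group, and lines are group means. The red points of Ctss, Ctsk, Ctsc and Ctsz lie above all blue points, and those of the other genes overlap them.

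Other genes of the same families and of cathepsin activation were mostly not called. None of 14 other cathepsin genes passed (limma; 2 lower and none higher at an unadjusted p under 0.05, and 1 lower by the methods' t-test), with a median difference of -0.18. The brightest of them were Ctso (difference 0.23, adjusted p = 0.549) and Ctsf (1.27, adjusted p = 0.249), and Ctsf was low in NTG pool 2, at 3.5 against 5.80 to 6.78 on the other arrays. Of 14 measured cystatins none passed (limma; 1 higher and 3 lower unadjusted, and 3 lower by the methods' t-test), with a median of -0.34. Most genes of both lists had NTG means in or under the range of the NTG lower quartiles (2.57 to 2.66). The lower quartiles of the transgenic arrays were 2.33 to 2.41, and detection was not checked. These medians and lower counts may therefore not describe expressed genes. Cstb, the cytosolic inhibitor stefin B, read 8.29, 8.46 and 9.76 across the NTG pools and 9.79 to 10.07 in SMC-IRF9-TG (difference 1.08, adjusted p = 0.15), and Cst6 differed by -0.69 (adjusted p = 0.215).

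Lgmn encodes legumain, the asparaginyl endopeptidase that cleaves cathepsins B, H and L to their 2-chain forms. It rose from 6.70, 5.85 and 6.72 in the NTG pools to 8.80, 8.69 and 8.56 in the transgenic pools (difference 2.26, standard error 0.27, adjusted p = 0.00541 from limma). It was the only gene of 11 for activation and sorting that passed (limma; 4 higher and none lower unadjusted, and 4 higher and 1 lower by the methods' t-test). The median of these 11 was 0.31. The transcription factors of the MiT/TFE family, which drive lysosomal genes through E-boxes, showed no call in 4 genes (limma; none unadjusted by either test), with Mitf at 0.37 (adjusted p = 0.388) and Tfe3 at -0.10 (adjusted p = 0.778). No gene of the proton pump V-ATPase, which acidifies the lysosome, passed among 19 (limma; 5 higher and 2 lower unadjusted, and 3 higher and 1 lower by the methods' t-test). Their median was 0.12, and the brightest, Atp6v1g1 and Atp6ap2, differed by 0.18 and -0.05 (adjusted p of 0.695 and 0.898).

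Substrates of the cathepsins were also measured. Of 7 extracellular matrix genes, 6 were higher, with a median of 1.84. Col1a1, of fibrillar collagen, differed by 2.48, Fn1, of fibronectin, by 2.06, Eln, of elastin, by 1.91 and Dcn, of decorin, by 1.84 (adjusted p of 0.00582, 0.00482, 0.0357 and 0.044). Second probe sets of Col1a1 and Fn1 were also higher (3.03 and 2.84), while those of Eln (2.97, adjusted p = 0.0837) and Dcn (0.53, adjusted p = 0.429) did not pass. None of 6 genes of the class II pathway passed by limma (4 higher unadjusted, and 1 by the methods' t-test). Their median difference was 2.97. Ciita and H2-DMa, picked from the values, differed by -0.41 and 1.74 (limma adjusted p of 0.327 and 0.227). All transgenic pools read below NTG for Ciita, and the groups overlapped for H2-DMa. Cd74, the invariant chain that cathepsin S cleaves, was uneven within NTG, at 4.38 and 4.37 in the first 2 pools and 7.54 in the third, and read 8.69, 7.67 and 8.42 in SMC-IRF9-TG (difference 2.83, adjusted p = 0.0942). It was picked from the values. H2-Aa and H2-Eb1, the brightest class II genes, had the same split among the NTG pools as Cd74. They read 9.73 and 8.69 in NTG pool 3 and 4.98 to 5.91 in the other 2. NTG pool 3 was thus the highest NTG array for Ctss, Ctsk, Cd74, H2-Aa and H2-Eb1. It was also the highest for 1416382_at of Ctsc, 1443814_x_at of Ctsh and both probe sets of Ctsa. It was the lowest NTG array for every probe set of Ctsl and Ctsz, 1437939_s_at of Ctsc and 1417490_at, 1417491_at and 1417492_at of Ctsb.

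Of the marker lists, only that of macrophages had most of its genes called higher. Of 20 macrophage markers, 14 were higher, and the median difference over the list was 3.54. The other 6 did not pass, with differences of 1.22 for Laptm5, 0.70 for Spi1, 0.16 for Itgam, 0.14 for Msr1, 0.03 for Mertk and -0.40 for Fcgr1. The summed level of the 20 on the log2 scale was 8.96 to 9.44 in NTG and 12.20 to 12.69 in SMC-IRF9-TG. Cd68 read 2.19 to 3.61 and 6.42 to 6.84 in these groups. The 5 called cathepsin genes rose alongside this list, and its part in their differences was not tested. The summed level of 11 contractile smooth muscle markers was 14.39 to 14.78 in NTG and 14.71 to 14.78 in SMC-IRF9-TG, and none was called (limma, and none unadjusted by either test). Of 9 fibroblast markers, Lum (5.30), Dcn (also a matrix gene), Col14a1 (1.76) and Pdgfra (1.48) were higher, with a median of 0.30 over the list. Of the other 5, Clec3b differed by -0.50 (adjusted p = 0.197), with all transgenic pools below NTG, and was the 1 marker lower at an unadjusted p under 0.05 by either test, while Mfap5 and Dpep1 differed by -0.27 and -0.25. The summed level of the list was 10.39 to 10.75 in NTG and 11.94 to 12.65 in SMC-IRF9-TG. Beside Ctsk, of 8 osteoclast markers only Acp5 was higher (2.57 to 3.09 in NTG and 4.38 to 5.02 in SMC-IRF9-TG), with a median of -0.28. At an unadjusted p under 0.05, 1 osteoclast marker was lower by limma and 2 by the methods' t-test.

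Beside Ctsc, the summed level of 9 neutrophil markers was 6.96 to 7.07 in NTG, 9.80 and 10.81 in transgenic pools 1 and 2 and 6.86 in transgenic pool 3. In that last pool Ctsc read 8.71, while S100a8 read 4.34 (2.56 to 4.07 in NTG) and Mpo 3.14 (2.80 to 2.91 in NTG). The part of these markers in the difference of Ctsc was not tested. No neutrophil gene was called (limma; 4 higher unadjusted, and 1 lower by the methods' t-test), and Ctsg, the neutrophil cathepsin G, read 1.95 to 2.78 in NTG and 2.46 to 3.29 in SMC-IRF9-TG. Of 10 T and NK cell markers, Klrd1 was higher (5.14 against 2.47 as group means), and of 10 endothelial markers Tie1 was higher (difference 1.75). Unadjusted, 2 markers of each of these lists were higher by limma, and 2 and 1 by the methods' t-test. None of the 4 B cell, 5 adipocyte, 8 skeletal muscle, 5 thyroid and 2 nerve markers was called by limma. At an unadjusted p under 0.05, 2 skeletal muscle and 2 thyroid markers were lower by limma and by the methods' t-test, and none of the others differed.

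**Figure D5:**
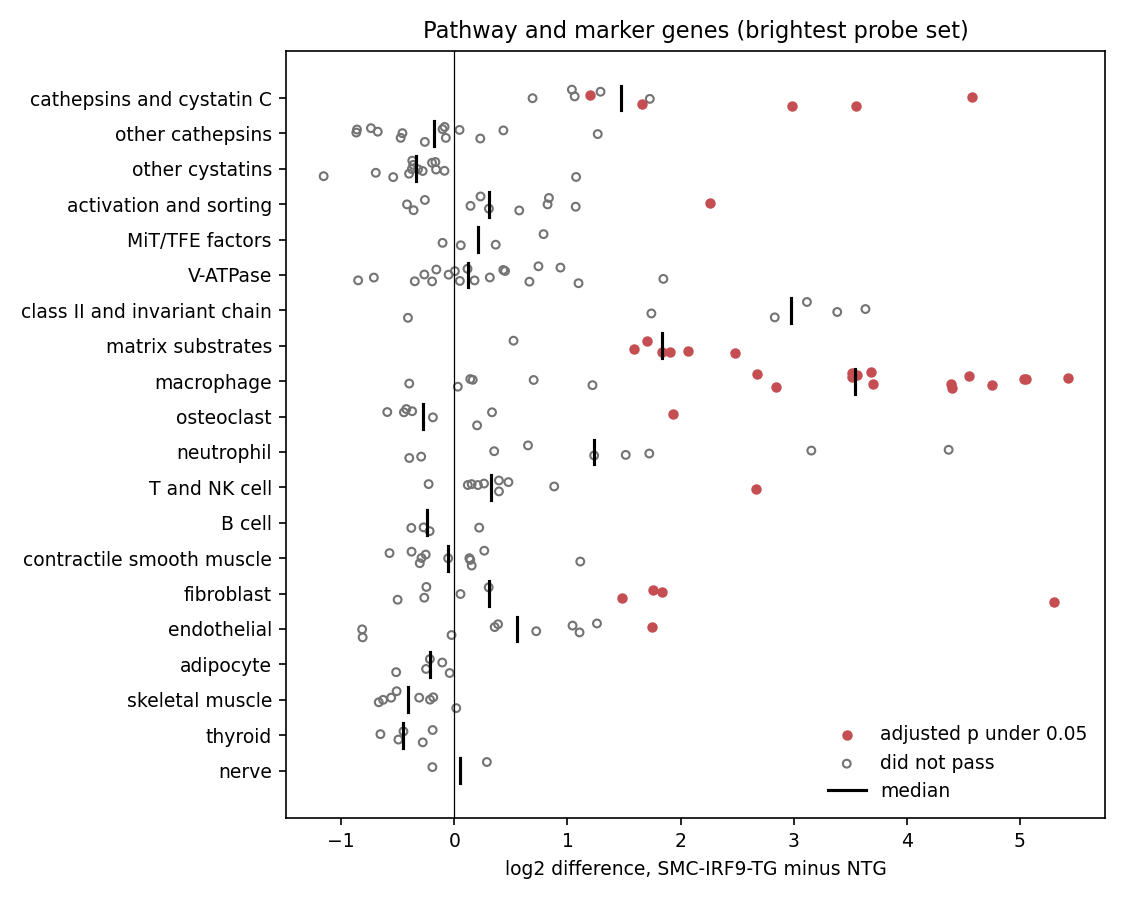
Log2 difference between SMC-IRF9-TG and NTG (x axis) of the 10 cathepsin and cystatin C genes and of each gene in 19 pathway and marker lists (y axis), by brightest probe set. Filled red points passed the adjusted threshold, open points did not, and black lines are medians, at 1.48 for the 10 genes and 3.54 for macrophage markers.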

How the data were processed

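Total RNA (400 ng) from 6 pools of injured carotid arteries was labelled with biotin and hybridized to Affymetrix arrays. The authors' deposited values are log2 levels per probe set, which the submitters' processing notes credit to RMA (background correction, quantile normalization and probe summary) in Affymetrix Expression Console, with versions not given in the sources used here. Over the probe sets tested, the spread of these levels differed between the groups. The lower quartile of an array was 2.57 to 2.66 in NTG and 2.33 to 2.41 in SMC-IRF9-TG. The upper quartile was 4.97 to 5.08 in NTG and 5.25 to 5.33 in SMC-IRF9-TG. The median difference was -0.13 over all probe sets and 0.13 without those below the median level. Groups came from the sample titles. Detection was not checked, since scanner files were not used here, and the number of arrays limits the precision.

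Of 45101 probe sets, 64 were control probe sets and the other 45037 entered the test whatever their level, with limma 3.58.1 (lmFit and eBayes) in R 4.3.3, 2-sided, with Benjamini-Hochberg adjustment over all of them. The methods name an independent t-test for the whole study and no test for the array, so that test was an alternative. The labels do not say which animals entered a pool, so p-values measure the spread between pools. A gene was taken by its probe set of highest mean over the 6 arrays, and each member probe set is reported. This mean takes in both groups, and for Ctsh the NTG arrays alone would have picked the other probe set. From pathway lists the text names up to 4 genes with the largest differences among those that passed, or the 2 of highest level. Other names stand as markers, or the text says that they were picked from the values. The members, the 19 lists and the blocks for Xist and poly-A controls were chosen with earlier results of these data known. Alternatives were array centring, quantile normalization, a filter on dim probe sets, other variance priors, array weights, the t-test, blocks, other thresholds, each array left out and genes averaged over their probe sets. Tests were tried first on simulated data. Permutations were run in scipy 1.17.1 under Python 3.11.15.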

Additional observations from a re-analysis of the deposited data

How the results depend on the processing

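The 7 member probe sets called higher became 4 after quantile normalization, 3 at an adjusted p threshold of 0.01, 3 with the replicate block, 1 with the block for high Xist (Ctsk), and 0 with the block for low poly-A controls and by the methods' t-test. After adjustment, that t-test called 1 of all 45037 probe sets. The 5 genes called by their brightest probe sets became 3, 3, 3, 1, 0 and 0 under the same settings. Other settings raised the 7 probe sets, to 9 after centring, 9 with the trended and robust prior, 8 without dim probe sets and 10 at a threshold of 0.1. The genes were 7 under each of these 4 settings. Array weights left 7 probe sets and 5 genes, and averaging over probe sets gave 6 genes. Leaving out 1 pool gave 3 to 9 probe sets and 3 to 6 genes, with 3 of each without any 1 transgenic pool (Ctss, Ctsk and Ctsc 1416382_at). No member was called lower under any setting. The median difference of the 21 probe sets, 1.06, was 0.81 after quantile normalization, and it was 0.96 to 1.15 when 1 pool was left out. Of the 9 proteases set against Cst3, the 4 separated became 2 when genes were averaged over their probe sets (Ctss and Ctsk, of 1 probe set each). They were 4 or 5 when 1 pool was left out, a step that cannot undo a full separation and so does not test it.

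Among single values, 13 of 375 changed sign, none of them called. Ctsb 1417491_at was 0.10 with the Xist block. Ctsb 1417492_at was -0.069 after quantile normalization and -0.018 (without NTG pool 3) to 0.46 (without NTG pool 2) when 1 pool was left out. Ctsa 1458466_at was 0.028 with the poly-A block and -0.32 (without NTG pool 2) to 0.057 (without NTG pool 3). Against Cst3, averaging over probe sets gave -0.14 for Ctsh, -0.37 for Ctsl and -0.24 for Ctsa. When 1 pool was left out, Ctsl was -0.059 (without NTG pool 3) to 0.35 and also -0.0081 without transgenic pool 1. Ctsd was -0.38 (without NTG pool 2) to 0.30, with -0.050 and -0.063 without transgenic pools 1 and 3. The cause of these changes was not tested. Centring moved the median of all probe sets from -0.13 to -0.03. Deviations from the group means of same-numbered arrays correlated at -0.15, -0.0006 and 0.027, against -0.15 to 0.13 over all pairs. Not each array correlated best with its own number. With 3 pools per group, these values cannot show whether same-numbered pools were paired. The filter on dim probe sets left out 3 of the 21. Over all probe sets, the 1069 higher and 168 lower became 547 and 153 after quantile normalization, 659 and 71 with the replicate block, 174 and 18 with the Xist block, 52 and 3 with the poly-A block, 1497 and 111 after centring, and 297 to 1268 and 23 to 583 when 1 pool was left out.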
